A study of Homo sapiens with 3 samples.

Results

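The genes followed here encode 10 factors that carry proteins and RNA between nucleus and cytoplasm: the GTPase RAN with its exchange factor RCC1 and its GTPase-activating protein RANGAP1, the import receptors KPNA2, KPNB1, IPO5, IPO7 and TNPO1, and the export receptors XPO1 and CSE1L. They were chosen as a named list, out of 3580 genes that had a ribosome peak in at least 1 of 3 libraries. A peak went to the gene of the RefSeq transcript named in its annotation where the lists pair that transcript with a gene name, and otherwise to the gene name of its row. By this rule 7 of the 10 had a peak, and IPO7, CSE1L and RANGAP1 had none. The libraries came from ribosome profiling, which sequences the stretches of mRNA that ribosomes shield from nuclease, and the cells were HEK293T, a line derived from human embryonic kidney. Cells were transiently transfected for 24 h with the empty pCDNA3.1 vector, a vector for FLAG-tagged wild-type DDX3X, or a vector for FLAG-tagged DDX3X G325E, a mutant of this RNA helicase found in medulloblastoma. All cells also carried their own DDX3X gene, and all were treated with 2 µg/ml harringtonine for 90 s, a drug that stalls ribosomes as they begin a coding sequence, and then with 100 µg/ml cycloheximide, which halts elongation. The study's methods name only cycloheximide.

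Traffic through the nuclear pore is driven by RAN, which is loaded with GTP by RCC1 on chromatin and made to hydrolyse it by RANGAP1 in the cytoplasm. Importins (KPNB1 with the adaptor KPNA2, and IPO5, IPO7 and TNPO1 on their own cargo) release their load when they meet RAN-GTP in the nucleus, whereas the exportins XPO1 and CSE1L bind theirs together with RAN-GTP and let go in the cytoplasm. XPO1 exports proteins with leucine-rich signals, DDX3X among its known partners, and CSE1L returns importin α such as KPNA2 to the cytoplasm.

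There was 1 library per construct, with no replicates, so no difference below could be set against the spread between cultures, no test was made, and every interval covers counting error alone and takes peaks as independent, which neighbouring peaks of a gene are not. The lists held 11219 peaks (vector), 19920 (wild-type) and 15680 (G325E), with no heights or read counts, so the depth behind a peak is not known from them and the number of peaks is not a measure of it. Levels below are numbers of peaks per 10000 peaks of a list, where 1 peak is worth 0.891, 0.502 and 0.638 in the same order, and where a count of 0 allows up to 3 peaks, or 2.67, 1.51 and 1.91. They are not protein or mRNA levels, and neither more ribosomes per mRNA nor more mRNA can be told apart in them. DDX3X itself had 0, 32 and 9 peaks. GC content in the 31 bases around a peak averaged 62.7%, 62.2% and 73.1%, so the G325E library differed from the others over all genes, and with 1 library each, construct and library cannot be told apart. The labels call the cells Neuronal: 11 of 14 neuronal markers had no peak in any list, while NEFM, NEFL and TUBB3 had peaks in all 3 (31, 35 and 51 in sum), and of 8 epithelial and kidney markers only KRT18 and KRT8 had any (0, 12 and 0).

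A peak over the start codon was found for 5 of the 10 members, and these stretches are shown because they carry the footprint that harringtonine is meant to hold. Each is in GRCh37, on the plus strand, from 12 bases before to 15 bases after the start codon of the GENCODE canonical transcript, which is in capitals, and lies wholly inside a peak.
RAN, chr12:131357127-131357156, in vector, wild-type and G325E: aggaacgccgcgATGgctgcgcagggagag
IPO5, chr13:98628939-98628968, in vector, wild-type and G325E: acgcctagcgcaATGgcggcggccgcggcg
KPNA2, chr17:66033237-66033266, in wild-type: tgtctcataaccATGtccaccaacgagaat
KPNB1, chr17:45727599-45727628, in wild-type: gccacctccgccATGgagctgatcaccatt
RCC1, chr1:28856367-28856396, in wild-type: caggacaggaagATGtcacccaagcgcata

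The start-codon stretches found in all 3 libraries were the richest in GC of the 5, at 70% for RAN and 80% for IPO5. Those found in the wild-type library alone held 43.3% (KPNA2), 53.3% (RCC1) and 60% (KPNB1). The vector list thus had a start-codon peak for 2 members, the wild-type list for 5 and the G325E list for 2. Within the coding sequence, the bases that all 3 libraries covered are shown in capitals for RAN exon 4 and for KPNB1 exons 8 and 9, coding sites that were listed 3 times. The other coding sites in all 3 libraries, at RAN codons 63 to 77, KPNB1 codons 300 to 313 and IPO5 codons 18 to 30, shared longer stretches and are not printed.
RAN exon 4, chr12:131357573-131357602: cctAGTGTTCCACACCAACAGAGGACCtat
KPNB1 exon 8, chr17:45741618-45741635: gccatTGAAGCTTCAGAG
KPNB1 exon 9, chr17:45742499-45742524: tcctCACACAGACACTAACTAAACAG
The sites upstream of the start codon that were listed in G325E alone held 60% to 94.1% GC in RAN and 80.6% to 100% in IPO5, and 1 short site of each, at 92% and 100%, is shown.
RAN, chr12:131356801-131356825: ggtggtgcgggcccggccgggccgg
IPO5, chr13:98628738-98628756: cgccggcggccgcggcggg

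In sum the members had 19 vector, 61 wild-type and 20 G325E peaks, or 16.9, 30.6 and 12.8 per 10000, spread over 4, 7 and 3 genes. Wild-type stood highest and G325E lowest. The log2 ratio was 0.85 for wild-type over vector (95% exact conditional binomial interval 0.09 to 1.68), -1.26 for G325E over wild-type (-2.07 to -0.51) and -0.41 for G325E over vector (-1.39 to 0.58). As a fold, G325E was 2.40 times lower than wild-type (1.43 to 4.20). All 3 comparisons share libraries, so they are not independent of each other.

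**Figure D1:**
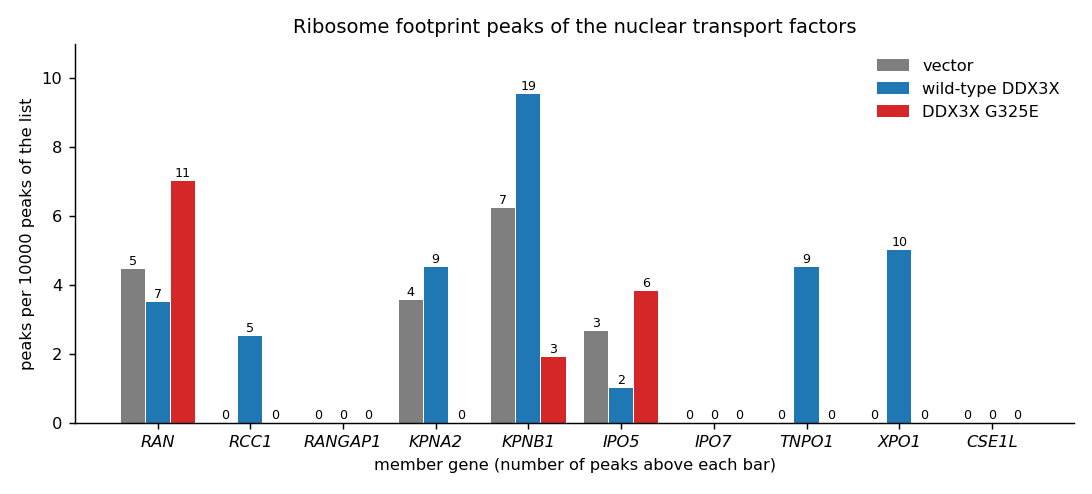
Peaks per 10000 peaks of the list (vertical axis) for each member gene (horizontal axis) in the vector, wild-type DDX3X and DDX3X G325E libraries, 1 library each, with the number of peaks above each bar and no error bars. RAN and IPO5 were highest in G325E (11 and 6 peaks), KPNB1 in wild-type (19), and RCC1, TNPO1 and XPO1 had bars in wild-type alone.

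RAN lies on chromosome 12 (131356582 to 131362223, plus strand) and has 216 codons in 7 exons. Its peaks numbered 5 (vector), 7 (wild-type) and 11 (G325E), or 4.46, 3.51 and 7.02 per 10000. G325E was 2.00 times wild-type, a value that computed as 1.996 and so lay just inside the 2-fold limit used for calls (0.707 to 6.07), and 1.57 times vector (0.504 to 5.78). In the coding sequence the libraries were alike, with 4 peaks in vector and 5 each in wild-type and G325E. The start-codon peak had 49, 50 and 49 bases and ended at the last base of exon 2, and a remainder of 2, 6 and 1 bases at the first base of exon 3 followed in the same order. Further peaks over codons 47 to 59 and 63 to 77 were in every library, and one over codons 80 to 83 was in wild-type and G325E. No list had a RAN peak beyond codon 83.

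What set G325E apart at RAN was the stretch between exons 1 and 2. It held 1 vector, 1 wild-type and 6 G325E peaks, and wild-type had 1 more in intron 2. The 6 peaks of G325E had midpoints at -326 to -43 bases from the start codon, in the canonical intron but in exons of other GENCODE transcripts of RAN, and the GC content around them was 77.4% to 93.5%. Peaks are numbered along each chromosome, and the vector and wild-type lists skip 8 and 11 numbers just before their first RAN peak, in a stretch that reaches from RAN to the next listed peak upstream, whereas the G325E list skips 0. Whether any skipped number lay in RAN is not known, so 5 of the 6 upstream peaks cannot be called particular to G325E. With every skipped number counted as RAN's own, the log2 ratio of G325E over wild-type went from 1.00 to -0.16.

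**Figure D2:**
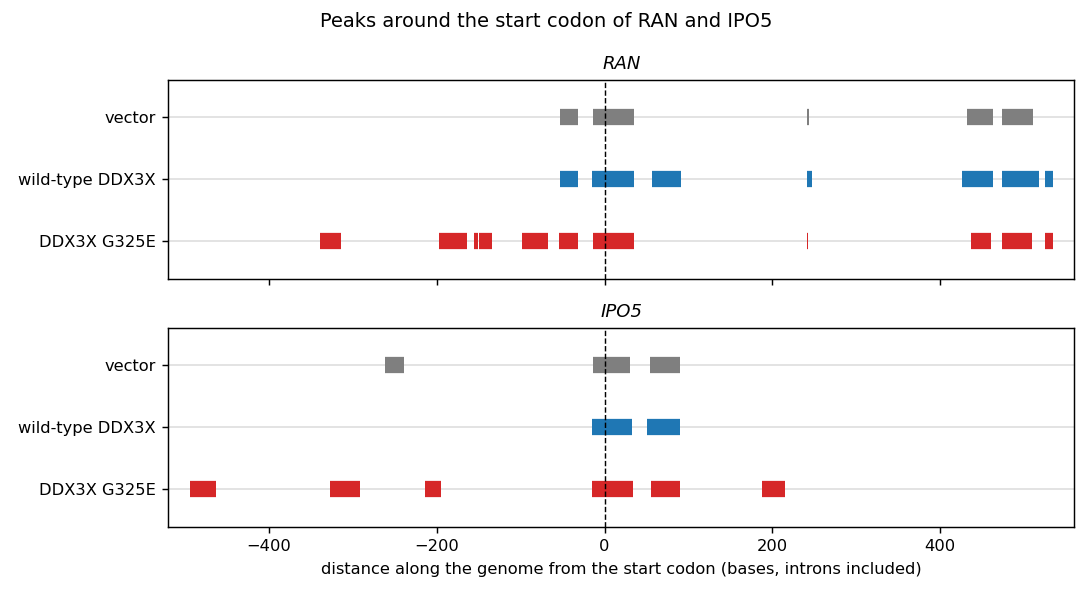
Peaks of RAN and IPO5 (bars) by distance in genomic bases from the start codon (dashed line, introns included), in 1 row per library; bar length is the peak's length. The peak over the start codon sits at the same place in all 3 rows of both genes, and the bars left of it are mostly in the G325E row.

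RCC1 (chromosome 1, 28832455 to 28865812, plus strand), the exchange factor, had 5 wild-type peaks and none in the other lists. Of the 5, which came to 2.51 per 10000, 1 covered the start codon and ran to the end of exon 5, 2 lay in exon 7 at codons 99 to 110 and 121 to 140, and 2 lay in introns on the opposite strand. Taking 0 as 3 peaks, G325E was 1.31 times lower than wild-type. The counting interval, taken on the 0 itself and not on 3 peaks, reached a ratio of 1.39 and so included no difference. No fold can be given against vector, where 5 wild-type peaks fall under what a count of 0 allows. RANGAP1, the GTPase-activating protein, had 0 peaks in every list by the rule. The G325E list nevertheless has 3 peaks on its exon 11, over codons 358 to 420 (chr22:41650312-41650498, minus strand), which carry a RefSeq transcript of RANGAP1 in their annotation and CHADL, the neighbouring gene, as their gene name. The lists never pair that transcript with RANGAP1, so the rule left the 3 peaks with CHADL. No vector or wild-type peak was listed there. Between the peaks that flank RANGAP1, the vector list skips 1 number, the wild-type list 2 and the G325E list 0. What the skipped numbers held is not known, so the 3 peaks cannot be called particular to G325E.

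KPNB1, importin β1, had the most peaks of the 10. It lies on chromosome 17 (45726842 to 45762871, plus strand), with 876 codons in 22 exons. Vector had 7 peaks, wild-type 19 and G325E 3, or 6.24, 9.54 and 1.91 per 10000. G325E was 4.99 times lower than wild-type (1.47 to 26.3) and 3.26 times lower than vector (0.744 to 19.5), while wild-type over vector was 1.53 (0.615 to 4.30). The 3 peaks left in G325E were those at codons 294 to 333, across the junction of exons 8 and 9, which vector and wild-type also had. Peaks over codons 117 to 161 in exon 4 were shared by vector and wild-type, and vector had 1 more in an intron. In wild-type alone there were peaks at the start of the gene, on the 5′ leader and the first 25 codons, and 6 from codon 516 to the last codons of the gene. Those 6 carry the name of TBKBP1, the next gene downstream, in the gene name column, and were given to KPNB1 by their RefSeq transcript.

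KPNA2, importin α1, had 4, 9 and 0 peaks in vector, wild-type and G325E, or 3.57, 4.52 and 0 per 10000. Wild-type over vector was 1.27 (0.354 to 5.63). Taking 0 as 3 peaks, G325E was 2.36 times lower than wild-type. The counting interval, taken on the 0 itself and not on 3 peaks, reached up to a ratio of 0.644 and is not that of this fold. The vector peaks all lay past the middle of the 529 codons, at codons 340 to 374 and 389 to 406, where wild-type had peaks too. Only wild-type had peaks at the beginning, 1 over the start codon that ran to the end of exon 2 and 3 on exon 3 over codons 26 to 71, besides 1 peak of a single base at the edge of exon 2.

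IPO5, an importin for ribosomal proteins and histones among other cargo, had 3, 2 and 6 peaks in the same order, or 2.67, 1.00 and 3.83 per 10000. It was the member with the highest ratio of G325E to wild-type, at 3.81, but with so few peaks the interval ran from 0.681 to 38.6. Each library had the same pair of coding peaks, over the start codon and over codons 18 to 30 to the end of exon 4, and no list had a peak in the other exons of its 1097 codons. The difference came from peaks in the canonical introns on either side of exon 4: vector had 1, wild-type 0 and G325E 4. Of those 4, 3 had midpoints at -478 to -204 bases from the start codon and 1 lay on the opposite strand. The peak at -204 lies in an exon of another GENCODE transcript of IPO5. The vector and wild-type lists skip 5 numbers each between the peaks that flank IPO5 (2 of those in vector inside the gene) and G325E skips 0. With all of them counted for IPO5, the log2 ratio of G325E over wild-type went from 1.93 to 0.33.

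TNPO1, transportin, which imports RNA-binding proteins such as hnRNPs, had 9 wild-type peaks (4.52 per 10000) and none in the other lists. Its 5 coding peaks lay on exon 2 from its first base, over codons 6 to 43, and on exon 13, over codons 473 to 510. The other 4 lay in the introns around exon 2, where the authors' annotation put 1 in its promoter-TSS class and 1 in its 5′-UTR class. Taking 0 as 3 peaks, wild-type was 1.69 times vector and 2.36 times G325E. Counting intervals of wild-type over each list, taken on the 0 itself and not on 3 peaks, reached down to 1.11 and 1.55. They are not intervals of these folds, for which none was computed. IPO7 (chromosome 11, 9406199 to 9469674), which imports ribosomal proteins, had no peak, so at most 3 peaks per list are allowed for it.

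XPO1 (chromosome 2, 61703167 to 61765876, minus strand), the exportin CRM1, had 0, 10 and 0 peaks, or 5.02 per 10000 in wild-type. Taking 0 as 3 peaks, wild-type was 1.88 times vector and 2.62 times G325E. Counting intervals of wild-type over each list, taken on the 0 itself and not on 3 peaks, reached down to 1.26 and 1.76. They are not intervals of these folds, for which none was computed. Unlike the other members with peaks, it had none on its 1071 codons. In the authors' classes 4 lay in the 5′-UTR, 4 in promoter-TSS and 2 in an intron, the last 2 on the opposite strand. The wild-type list skips 4 more numbers among these peaks. CSE1L, the recycling factor of importin α, had no peak in any list.

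Set against all genes, the members were counted past a 2-fold limit among genes with at least 5 peaks in the 2 libraries together, a 0 being taken as 3 peaks. For wild-type over vector, 7 members could be counted: 0 were higher, where 9.08% of 2191 genes were, and 1 (IPO5) was lower, where 17.4% were. For G325E over wild-type, again of 7, IPO5 was higher, where 26.1% of 2528 genes were, and 4 (KPNA2, KPNB1, TNPO1 and XPO1) were lower, where 16.5% were. For G325E over vector only 3 had enough peaks, with 0 higher against 17.2% of 2067 genes and 1 (KPNB1) lower against 22.7%. With a 0 again taken as 3 peaks, the median log2 ratio of the members counted was 0.34, -1.24 and 0.52 in the 3 comparisons. Taken the same way, that of all genes counted was -0.24, 0.10 and 0.00. RCC1, TNPO1 and XPO1 (and, beside G325E, KPNA2) reached 5 peaks through wild-type alone and could come out on 1 side only, so these counts describe the lists and give no support for a direction.

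Among genes with at least 5 wild-type peaks, 4 of 6 members (RCC1, KPNA2, TNPO1 and XPO1) had no G325E peak, as had 32.3% of 1708 genes. No vector peak was listed for 3 of 6 (RCC1, TNPO1 and XPO1), as for 29.3% of the genes. This minimum was set on the wild-type list itself and left out IPO5, with 2 wild-type and 6 G325E peaks. These counts therefore give no support for a direction either. The 6 members are mostly poor in GC, but so is IPO5, at 43.5% of its coding sequence. Coding GC was 37.1% in XPO1, 41.7% in TNPO1, 45.2% in KPNA2, 46.9% in KPNB1, 47.1% in RAN and 58.1% in RCC1. In genes under 45% coding GC, 40.7% had no G325E peak. The shares were 36.3% at 45 to 50%, 31.7% at 50 to 55%, 30.9% at 55 to 60% and 23.3% at 60% or more. For vector they were 35.9%, 27.4%, 31.7%, 23.8% and 30.7% in the same order. GC was known for 90.4% of these genes, and its part in the missing G325E peaks was not tested. For RCC1, KPNA2 and TNPO1 the vector list skips no number between the flanking peaks and for XPO1 it skips 1, and the G325E list skips none anywhere.

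**Figure D3:**
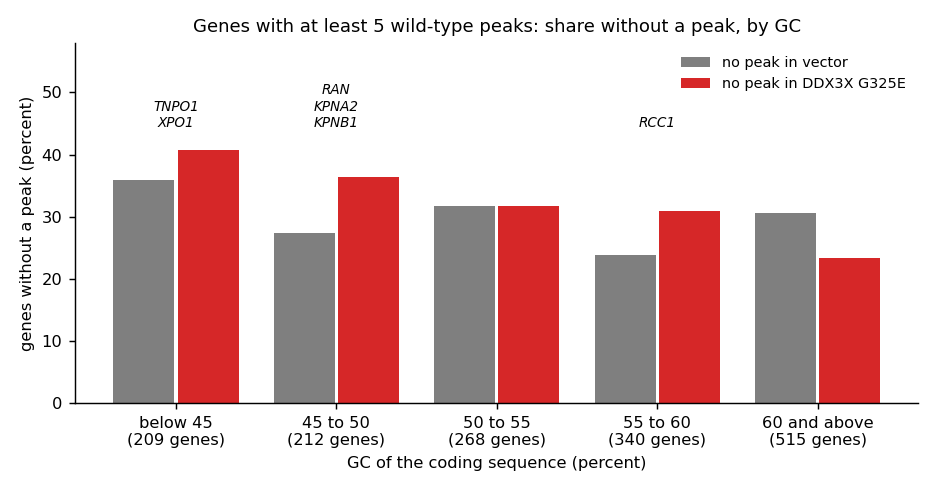
Genes with at least 5 wild-type peaks, grouped by GC of the coding sequence (horizontal axis, percent), and the percentage of each group without a peak in the vector (grey) or G325E (red) list; member genes are named above their group. The red bars fall from 40.7% to 23.3% with rising GC, and the grey bars go up and down between 35.9% and 23.8%. Of the 6 members named, 5 are in the 2 lowest groups.

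Along the coding sequence, member peaks lay mostly in the first 50%. It held 12 of the 16 coding peaks of vector (75.0%, 95% Wilson interval 50.5 to 89.8), 26 of the 38 of wild-type (68.4%, 52.5 to 80.9) and all 10 of G325E (100%, 72.2 to 100). Over all genes the shares were 54.0%, 53.3% and 67.0%. The members' order was that of all genes, with G325E highest, but the 10 G325E peaks came from RAN, KPNB1 and IPO5 only. With the 3 peaks on RANGAP1 exon 11 included, which lay at 63.5% to 71.3% of its coding sequence, the G325E share was 76.9%. The vector peaks past the middle were the 4 of KPNA2, and those of wild-type belonged to KPNB1, KPNA2 and TNPO1.

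**Figure D4:**
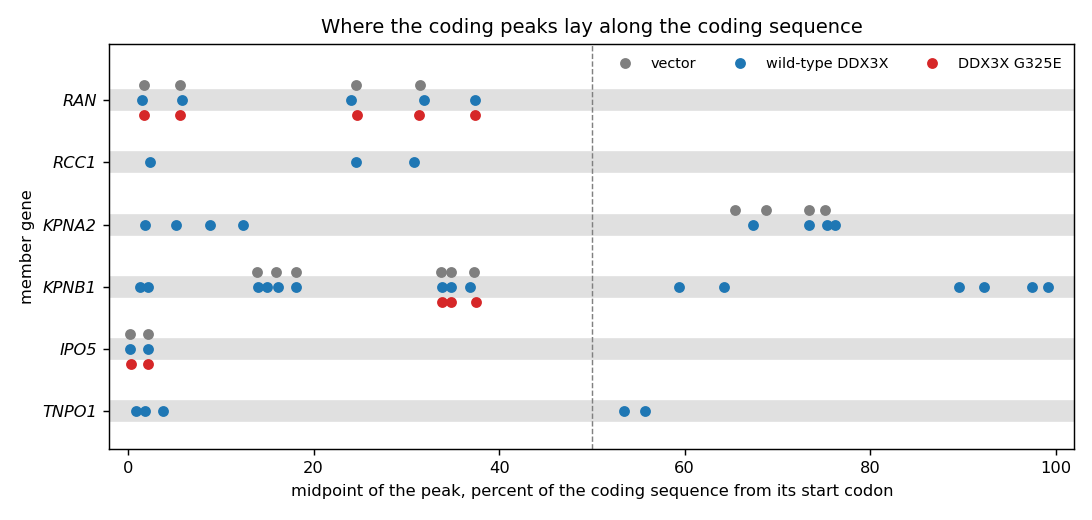
Midpoints of the coding peaks as a percentage of the coding sequence from the start codon (horizontal axis) for each member with a coding peak, with vector, wild-type and G325E points in 3 rows per gene and a dashed line at 50%. All 10 G325E points lie left of the line, and points right of it belong to KPNA2, KPNB1 and TNPO1; the 3 G325E peaks on RANGAP1 exon 11, which the rule gave to CHADL, are not drawn and would lie right of it.

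The 5′-UTR class held 0 of 16 member peaks of the 5′-UTR, exon and 3′-UTR classes in vector, 7 of 45 in wild-type (15.6%, 7.75 to 28.8) and 0 of 9 in G325E (Wilson upper bound 29.9%). All genes gave 9.07%, 8.85% and 19.2%. The high share of G325E over all genes did not appear among these 9 peaks. Their number cannot show a share of that size to be absent, and peaks classed as intron are outside this count. In G325E those include RAN peaks at -326 to -43 bases from the start codon and an IPO5 peak at -204. These lie in exons of other GENCODE transcripts, so the share does not show the members' leaders to be free of G325E peaks. The 7 wild-type peaks were those of XPO1, KPNB1 and TNPO1. Peaks classed as intron made up 3 of 19 vector peaks of the members (15.8%), 9 of 61 wild-type peaks (14.8%) and 11 of 20 G325E peaks (55%, 34.2 to 74.2), against 9.89%, 11.1% and 13.1% over all genes. In G325E they were peaks of RAN and IPO5, and the 10 inside a canonical intron had a GC content of 87.1% ± 5.89 (SD over peaks). Over all genes, G325E peaks inside a canonical intron averaged 79.3% ± 10.6, and those of vector and wild-type 71.4% and 70.3%.

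The footprints of vector were mostly found again in wild-type. Of 19 vector peaks, 17 (89.5%, 68.6 to 97.1) overlapped a wild-type peak on the same strand by at least 1 base, where 75.3% of all vector peaks did, and 9 (47.4%) overlapped a G325E peak, where 46.6% did. Of 61 wild-type peaks, 18 (29.5%, 19.6 to 41.9) overlapped vector and 10 (16.4%, 9.16 to 27.6) overlapped G325E, where 40.9% and 33.8% of all wild-type peaks did. Of 20 G325E peaks, 10 (50%) overlapped wild-type and 9 (45%) overlapped vector, where 45.9% and 34.5% of all G325E peaks did. Joined over the libraries, RAN had 12 sites on its own strand with 4 in all 3 libraries, KPNB1 had 19 with 3, IPO5 had 6 with 2 and KPNA2 had 7 with 0, while every site of TNPO1, XPO1 and RCC1 was in wild-type alone.

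Peaks often stopped at exon edges, since they were listed on the genome. Among member peaks, 5 of vector, 14 of wild-type and 5 of G325E ended at the last base of an exon that is followed by an intron, and 2, 4 and 2 of those had a partner at the first base of the next exon. A footprint across a junction can therefore be counted as 2 peaks. Processed copies may share reads with some members: GENCODE names 9 pseudogenes for RAN, 3 each for KPNA2 and TNPO1, 2 for IPO7 and 1 each for KPNB1 and IPO5. The study describes reads as uniquely mapped, and whether this changed the members' peaks was not tested.

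The wider transport machinery did not follow 1 pattern. Other Ran-cycle genes are RANBP1, a RAN-GTP binding protein that helps RANGAP1, with 14 peaks in each list, and RANBP3, a cofactor of XPO1, with 0, 14 and 11. With RAN and RCC1 they made up the 4 of 8 listed Ran-cycle genes that had a peak, and their sum was 16.9, 20.1 and 23.0 per 10000. Of 19 import receptors, the members included, 8 had a peak, with 15.2, 29.1 and 14.0 per 10000. KPNA4, another importin α, had 3, 7 and 4 peaks. Of 7 export receptors only XPO1 and XPOT, the tRNA exportin, had peaks, and XPOT had 4, 3 and 9. Of 26 nucleoporins 6 had a peak (6.24, 16.6 and 23.6 per 10000), led by NUP62 of the central channel with 0, 12 and 16, SEC13 of the outer ring with 5, 7 and 3, and NUP153 of the nuclear basket with 0, 5 and 7. Of 17 mRNA export factors 6 had a peak (20.5, 23.1 and 8.93 per 10000), and among them were ALYREF, an adaptor of the mRNA exporter, with 18, 17 and 12, the helicase DDX39A with 4, 15 and 0, and THOC5 of the THO complex with 1, 5 and 0. For G325E over wild-type, 26.1% of 2528 genes were past the 2-fold limit as higher and 16.5% as lower. The counts were 0 higher and 0 lower of 4 Ran-cycle genes, 1 and 3 of 7 import receptors and 1 and 1 of 2 export receptors. They were 0 and 1 of 4 mRNA export factors and 1 and 1 of 5 nucleoporins. Groups this small cannot show a departure from the shares of all genes. The Ran-cycle, import and export groups also count the members again.

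By the split of peaks over libraries and annotation classes, the genes closest to the members' sum were YBX3 (total variation distance 0.211, with 8, 15 and 8 peaks), SF3B2 (0.216), FKBP4 (0.220), HNRNPU (0.220) and POU4F1 (0.231). The median distance was 0.453 over 719 genes with at least 20 peaks.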

How the data were processed

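Ribosome peaks were called by the authors in each HEK293T library separately. Per the submitters' processing notes and the study's methods, reads were trimmed (cutadapt), aligned to hg19 with BWA 0.5.5 and turned into peaks from base coverage. The deposited lists hold positions, strands and HOMER's annotation (version not given in the sources used here), and no heights. The deposited start lay 1 base past an inner exon start in 5572 peaks and at it in 40, whereas 5708 ends met an exon end, so 1 was taken off every start. The 671 peaks then 1 base long all carry a minus strand, which was not read as information.

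Peaks were placed on GENCODE release 44 canonical transcripts (GRCh37). Ratios have exact conditional binomial and shares Wilson intervals (95%), and scripts were tested on simulated data. Named genes were all members, DDX3X, the 3 genes with most peaks of each wider group, the 5 closest genes and the markers. The members and lists were chosen with earlier results of these data known. Alternatives covered the gene column, strand, length, joining, bases, overlap, scaling and minimum, and those on the RefSeq table, splice junctions, skipped numbers and zeros were added after seeing the data. Python 3.11.15, numpy 2.4.6, pandas 2.3.3, scipy 1.17.1 and matplotlib 3.10.9 were used.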

Additional observations from a re-analysis of the deposited data

Results flagged for a closer look

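Peaks classed as intron made up 55% of the members' G325E peaks, above 15.8% in vector, where all genes gave 13.1% and 9.89%. They belong to RAN and IPO5, beside which the vector list skips 8 and 5 numbers, the wild-type list 11 and 5 and the G325E list 0, so the difference cannot be told apart from what the skipped numbers held. Opposite-strand peaks over 1 base long were 7.14% of the members' peaks on the canonical transcript in wild-type (4 of 56) and 5.26% in G325E (1 of 19), with 0 of 19 in vector. Over all genes these shares were 8.84%, 14.98% and 7.37%, so the members' shares were not above the background. The G325E list also has 3 peaks on RANGAP1 exon 11 under the name of CHADL, where vector and wild-type have 0. Between the peaks that flank RANGAP1, the vector list skips 1 number, the wild-type list 2 and the G325E list 0, so the same limit holds there. None of these values was tested, with 1 library per construct.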

How the results depend on the processing

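Across 287 recomputed values, 263 stayed within 1.5 times (counts of members) or within the counting interval (ratios and shares) and 24 moved, with no called value changing sign. Some log2 ratios of single genes did change sign. With skipped numbers counted, G325E over wild-type went from 1.00 to -0.16 in RAN. G325E over vector then went from 0.65 to -0.49 in RAN and from 0.52 to -0.67 in IPO5. Wild-type over vector went from -0.34 to 0.22 in RAN with the median gene ratio. In KPNA2 it went from 0.34 to -0.37 with peaks of at least 25 bases. The KPNB1 ratios kept their sign. The summed log2 ratio ranged from 0.41 to 1.42 for wild-type over vector, from -1.80 to -0.90 for G325E over wild-type and from -1.14 to -0.03 for G325E over vector. The counts of members past the fold limit were less stable. For wild-type over vector, higher members were 1 by bases covered, 3 when scaled by the median gene ratio, 1 with skipped numbers counted and 3 with a 0 counted as past the fold, and lower members were 0 with peaks of at least 25 bases, with peaks under 30 bases apart joined, with the median gene ratio, with skipped numbers counted and with at least 10 peaks. For G325E over wild-type, higher members were 2 with near peaks joined, with UTR and exon scaling and with splice junctions joined, and 0 with skipped numbers counted and with at least 10 peaks, and lower members were 1 with at least 25 bases, 1 with near peaks joined, 2 with UTR and exon scaling and 2 with at least 10 peaks. For G325E over vector, 1 was higher with the median gene ratio and 0 were lower with near peaks joined. Members without a G325E peak were 2 with peaks of at least 25 bases and 1 with at least 10 peaks, and those without a vector peak were 1 with at least 10. With the gene name column alone, which gives the last exons of KPNB1 to TBKBP1, the share of wild-type coding peaks in the first 50% was 86.7%. Except where an alternative leaves fewer peaks by its construction, the cause was not tested. No library could be left out, as each construct has 1.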
